A study of Mus musculus with 32 samples.

Results

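AICAR is a nucleoside that cells take up and phosphorylate to ZMP, a mimic of AMP. The comparison set out here is hippocampus after 7 days of AICAR against hippocampus after saline: the 4 arrays titled as hippocampus with 7 days of AICAR and the 4 titled as hippocampus with saline, 8 of the 32 arrays of the series. By its title the series asks how AICAR affects mental performance and movement in young and old mice. The 7-day mice received AICAR in saline by intraperitoneal injection on 7 days, at a daily dose of 500 mg/kg. The saline mice received the vehicle for 3 days. All were female C57BL/6J mice, 23 months old, kept 3 to a cage, and their hippocampus was taken after perfusion 33 days after the last injection, so the arrays show the tissue long after the compound was given. As saline was given for 3 days, the number of injections and the compound cannot be told apart. Nothing in the labels says whether the replicates are separate mice, and the p-values then measure the spread between arrays, which may be technical.

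AMP-activated protein kinase (AMPK) is a trimer of a catalytic α subunit and regulatory β and γ subunits that senses low cellular energy. AMP or ZMP bound to the γ subunit, together with phosphorylation by upstream kinases such as LKB1, raises its activity, and the active kinase slows biosynthesis and favours fuel oxidation, mitochondrial renewal and autophagy. The hippocampus holds the dentate gyrus and the CA fields, which encode new memories and where activity-dependent genes such as Fos and Arc are switched on by neuronal firing.

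Levels below are log2 intensities after background correction and quantile normalization, and a change is the 7-day mean minus the saline mean with its standard error (SE). A probe was called when its limma p-value, adjusted by Benjamini and Hochberg over all 13659 probes tested, was below 0.05. A gene is read from its brightest tested probe. After 7 days of AICAR, 1154 of 9534 genes were higher (12.1%) and 1469 were lower (15.4%). The counts of called genes in every list below are to be read against these shares. The 4 arrays of 7 days did not overlap the 4 saline arrays in 2953 genes (31%) and in 4133 of all probes (30.3%).

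The balance of rises and falls depended on the scaling. Quantile normalization gives every array the same distribution, whereas median scaling moves each array to a common median and leaves the shape of its distribution alone. The median change of all genes was -0.05 under quantile normalization and 0.17 under median scaling, a shift of the size of many calls. With median scaling 2124 genes were higher (22.3%) and 187 were lower (1.96%). Called the same way under both were 1141 genes that were higher (12%) and 178 that were lower (1.87%). Median scaling moved the median of all genes up, so it could hardly fail a rise, and 1141 of the 1154 rises kept their call. Being called under both is thus a weak check of a rise and a strict one of a fall, kept by 178 of 1469. Rises below were called under both scalings unless said otherwise. A named fall that lost its call under median scaling is marked as such, in part with its value there.

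Some measures of the arrays moved with the groups. The background signal, the median raw intensity of probes with a detection p above 0.5, was 158.7 ± 4.41 in the 7-day arrays and 122.4 ± 3.17 in the saline arrays (mean ± SD of raw intensity, n = 4 each), and the groups did not overlap. Between 12745 and 13225 probes were detected per 7-day array, against 11846 to 12588 per saline array. Over all 16 hippocampal arrays the first principal component held 36% of the variance, and it set the 7- and 14-day arrays apart from the saline and 3-day arrays. The part of these array differences in the changes below was not tested. Samples are numbered treatment by treatment in the labels, so handling and treatment cannot be told apart.

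**Figure D1:**
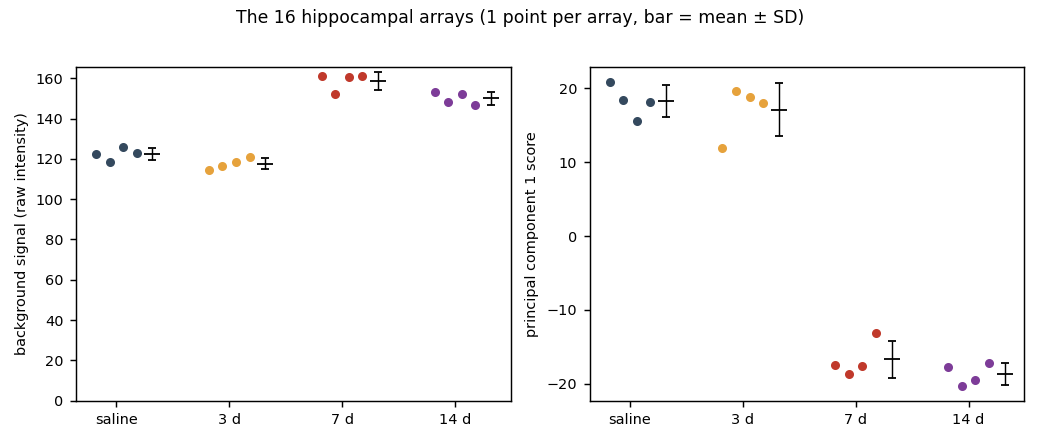
Background signal in raw intensity units (left) and score on the first principal component (right) of the 16 hippocampal arrays, by days of AICAR. Points are arrays and bars are means with SD. The 7- and 14-day arrays lie above all saline and 3-day arrays in background and below them on the component.

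Markers of hippocampal cells were present in all 8 arrays. Slc17a7, the vesicular glutamate transporter of excitatory neurons, lay between 12.07 and 12.65, Camk2a between 12.36 and 12.86, and Prox1, a dentate granule cell factor, between 8.70 and 9.44. The single probes of Snap25 and Neurod6 were detected on 0 of the 8 arrays. Ckm and Myh4, the creatine kinase and a myosin of skeletal muscle, were also detected on 0 of the 8. The choroid plexus, the fluid-secreting tissue of the neighbouring ventricle, differed among arrays of the same group. Its transthyretin gene Ttr stood at 14.93, 15.10, 14.97 and 11.89 in replicates 1 to 4 of 7 days, and at 11.21, 14.46, 14.82 and 14.82 in replicates 1 to 4 of saline. Replicate 4 of 7 days and replicate 1 of saline had the lowest level of their group in 13 of the 13 choroid plexus markers tested. The summed level of these markers (linear scale) ranged between 4566 and 42981 in the 7-day arrays and between 3023 and 35879 in the saline arrays. Without those 2 arrays 2585 probes were called, against 3696 with them. Leaving out any single array already gave 2991 to 3253. The drop thus also holds the loss of arrays, as do the list counts without these 2 arrays below. The part of the choroid plexus in it was not tested. In bulk tissue, fewer cells of a type and less RNA per cell cannot be told apart.

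The 12 largest rises were led by Ptgds, which makes prostaglandin D2 and is abundant in the meninges and choroid plexus. Ptgds stood at 12.60, 12.47, 12.26 and 12.17 in the 7-day arrays and at 10.70, 11.14, 11.51 and 10.10 in the saline arrays. All 7-day arrays lay above all saline arrays. The lowest 7-day array, replicate 4, was also lowest in Ttr, whereas the lowest saline array, replicate 4, was among the highest in Ttr. The change in Ptgds was 1.51 ± 0.44 (adjusted p = 0.0191). It missed the threshold without saline replicate 4 (adjusted p = 0.0625), and without both arrays of low Ttr it was 1.53 (adjusted p = 0.0626). Ptgds was the 1 called gene among 16 tested markers of meninges and fibroblasts, whose median change was 0.35 and whose summed level ranged between 17326 and 26643 after 7 days and between 10191 and 21494 after saline. The part of these cells in the rise of Ptgds was not tested.

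Cnn3, an actin-binding calponin, had 8.69, 9.02, 9.09 and 8.55 in the 7-day arrays and 7.13, 7.27, 7.48 and 7.55 in the saline arrays. Its groups lay well apart, and the change of 1.48 ± 0.12 (adjusted p = 8.75e-06) was the second largest rise. Psmd11, a subunit of the proteasome's regulatory particle, stood at 7.70, 7.73, 7.62 and 7.71 after 7 days and at 6.52, 6.51, 5.94 and 6.30 after saline, a change of 1.37 ± 0.13 (adjusted p = 1.44e-05). The 7-day arrays were close to each other and the saline arrays spread more widely below them. Gucy1b1, the β subunit of the nitric oxide receptor soluble guanylate cyclase, averaged 8.83 ± 0.13 after 7 days and 7.58 ± 0.20 after saline (SD, n = 4 each). Klhdc3, a substrate receptor of a ubiquitin ligase, averaged 8.63 ± 0.11 after 7 days and 7.38 ± 0.18 after saline, without overlap. Slc35b1, the ATP carrier of the endoplasmic reticulum, averaged 10.42 ± 0.07 after 7 days and 9.20 ± 0.16 after saline, and the change of 1.22 ± 0.12 had an adjusted p of 1.52e-05.

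Atxn10, whose human repeat expansion causes an ataxia, was higher by 1.28 ± 0.13, and Trappc9, a subunit of a vesicle tethering complex, by 1.20 ± 0.21. In Trappc9 the saline arrays ranged between 5.82 and 7.16, a wider range than the 7.48 to 7.68 of the 7-day arrays. Rtn4, which encodes the myelin protein Nogo, was higher by 1.25 ± 0.15 on its brightest probe, while its other probes changed by 0.37 and -0.16, and the last of these was not called. Antxr1, a collagen-binding receptor, was not detected on any saline array. It was at least 2.14-fold higher after 7 days (adjusted p = 0.00329), with measured means of 6.67 after 7 days and 5.37 after saline, while its other probe changed by 0.61, which was not called. Atxn2l, a stress granule protein, was detected on 0 of 4 saline arrays too and was at least 1.75-fold higher (adjusted p = 0.000928), with means of 6.38 after 7 days and 5.10 after saline. A bound sets the bright group's mean against the detection limit of the dim arrays.

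**Figure D2:**
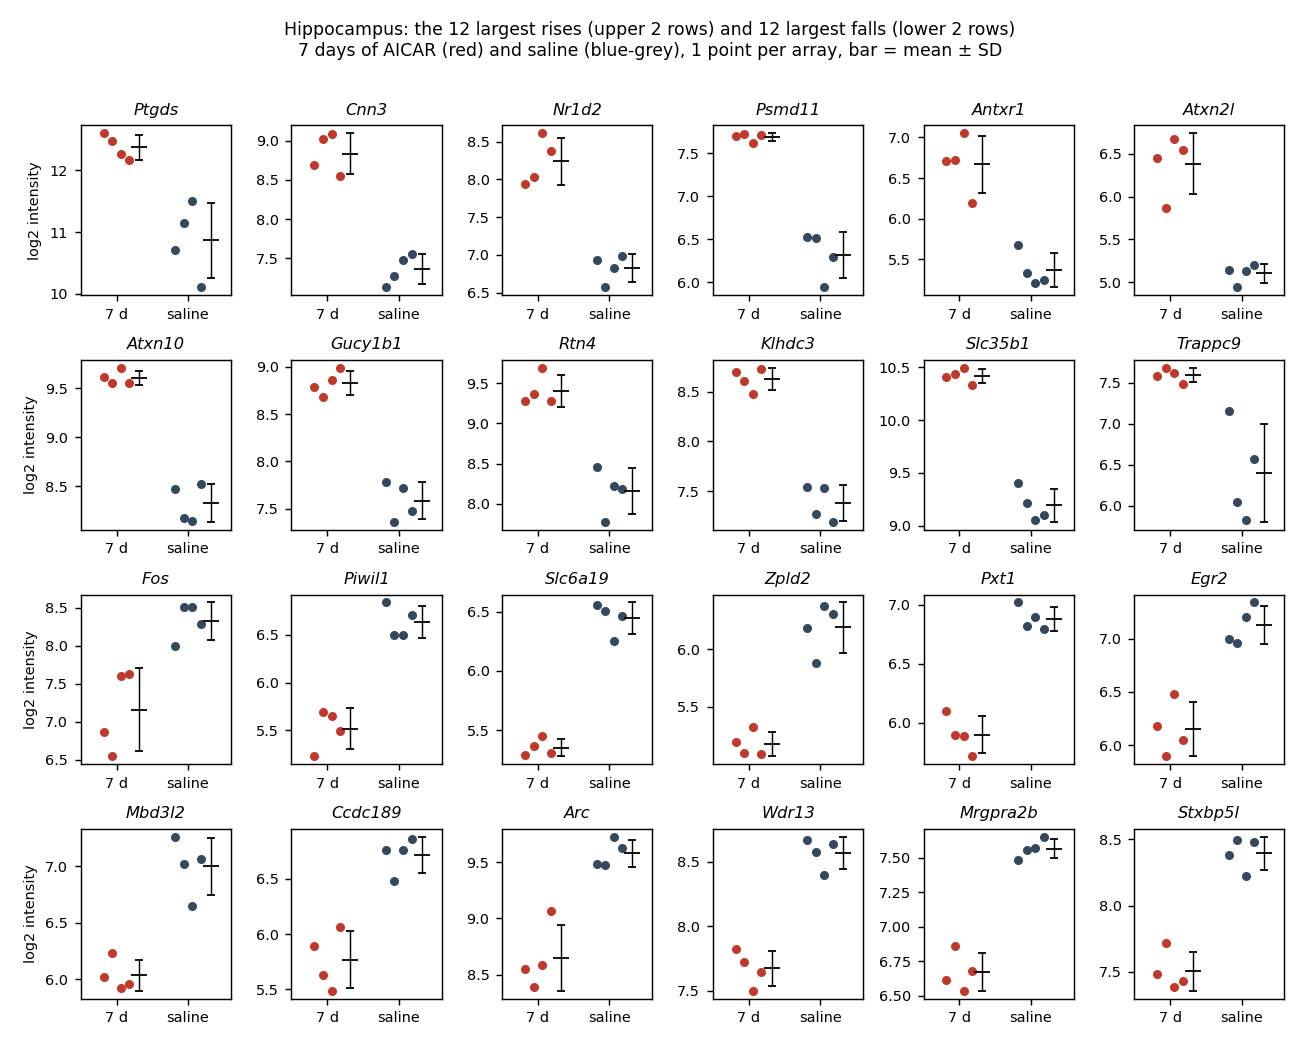
Log2 intensity of 24 genes, the 12 of largest rise (upper) and the 12 of largest fall (lower), each on its brightest probe, in the 4 arrays of 7 days of AICAR (left in each panel) and the 4 saline arrays (right). Points are arrays in replicate order and bars are means with SD. In each panel the groups do not overlap, as the choice of genes required.

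Of the 12 largest falls, 3 were activity-dependent genes, Fos, Egr2 and Arc, and all 12 were also called lower under median scaling. Several of the other large falls had levels near the detection limit. Piwil1, an Argonaute protein of germ cells, averaged 5.52 ± 0.21 after 7 days and 6.64 ± 0.17 after saline (SD, n = 4 each). Slc6a19, a neutral amino acid transporter of gut and kidney, averaged 5.35 ± 0.08 after 7 days, where it was detected on 1 of 4 arrays, and 6.44 ± 0.14 after saline, where it was detected on 4. Zpld2 was undetected on all 7-day arrays and at least 1.70-fold lower than in saline (adjusted p = 0.000128), with means of 5.18 after 7 days and 6.19 after saline. Pxt1, named for peroxisomes and testis, fell by 0.98 (SE 0.10) and Mbd3l2, a relative of a methyl-CpG-binding protein, by 0.97 (SE 0.16). Stxbp5l, a tomosyn that restrains synaptic vesicle release, stood at 7.48, 7.72, 7.38 and 7.43 after 7 days and at 8.38, 8.49, 8.22 and 8.48 after saline. Its 7-day arrays lay below every saline array, and the change was -0.89 ± 0.08 (adjusted p = 1.44e-05), and -0.58 under median scaling (adjusted p = 0.000875). Wdr13 fell by 0.90 (SE 0.10) on its brightest probe, and its other probe changed by -0.17, which was not called.

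The 24 genes were set beside the other durations. Between 7 and 3 days of AICAR 22 of the 24 differed. The exceptions were Ptgds (adjusted p = 0.0509) and Arc (adjusted p = 0.0783). Over all probes 3572 differed between 7 and 3 days (26.2%). Between 14 and 7 days 0 of the 24 differed, and 0 of all 13659 probes passed the adjusted threshold by limma, with 404 at an unadjusted p below 0.05 (2.96%). These comparisons share the 7-day arrays with the one against saline, by which the 24 genes were chosen. That choice favoured a difference from 3 days in advance.

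The circadian clock of a cell is a loop in which CLOCK and BMAL1 bind E-boxes and switch on their own repressors, the Per and Cry genes and the nuclear receptors Nr1d1 and Nr1d2. Of 20 clock genes tested, 5 were higher (25%) and 3 were lower (15%), against 12.1% and 15.4% among all genes. The list's median change was -0.02. Nr1d2, a haem-binding repressor of Bmal1, stood at 7.94, 8.03, 8.61 and 8.37 after 7 days and at 6.93, 6.57, 6.82 and 6.99 after saline. All 7-day arrays lay above the saline arrays, with a change of 1.41 ± 0.18 (adjusted p = 7.49e-05). Cry2, a cryptochrome that blocks CLOCK and BMAL1, had 8.34, 8.54, 8.46 and 8.69 after 7 days, against 7.61, 7.73, 7.77 and 7.28 after saline, and rose by 0.91 ± 0.14 (adjusted p = 0.000311). Per1, the partner of the cryptochromes, had 8.52, 8.37, 8.35 and 8.57 after 7 days and 8.20, 7.93, 8.01 and 7.85 after saline, without overlap (0.46 ± 0.11, adjusted p = 0.00565), but its second probe changed by -0.32, which was not called. Rora, an activator of Bmal1, rose by 0.42 with overlapping arrays, and Nr1d1, the close relative of Nr1d2, changed by -0.12, which was not called. Tef, a transcription factor of the clock's output, rose by 0.57 on its brightest probe while its other probe fell by 0.57 (median scaling -0.35, not called). The falls were Hlf (-0.51, and -0.44 under median scaling, with overlapping arrays), Ciart (-0.45 and -0.37 on its probes, and -0.14 on the brightest there, not called) and Csnk1d (-0.34, and -0.04 there, not called). Without both arrays of low Ttr 5 clock genes were higher and 1 was lower. The labels give no time of day for the collection of tissue.

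Over the durations, Nr1d2 was 0.55 higher after 3 days than after saline, which was not called, 1.41 higher after 7 days and 1.03 higher after 14 days. Cry2 changed by 0.03, 0.91 and 0.77 at 3, 7 and 14 days, and Per1 by -0.13, 0.46 and 0.61. For these 3 genes the 7- and 14-day changes from saline were called and the 3-day change was not. The differences between 14 and 7 days were not called. All these changes share the saline arrays. The same split ran through the arrays as a whole. Over all probes 3572 were called between 7 and 3 days and 0 between 14 and 7 days. Background signal and the first principal component also set the 7- and 14-day arrays apart from the others. The part of these array differences in the course of the clock genes was not tested.

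**Figure D3:**
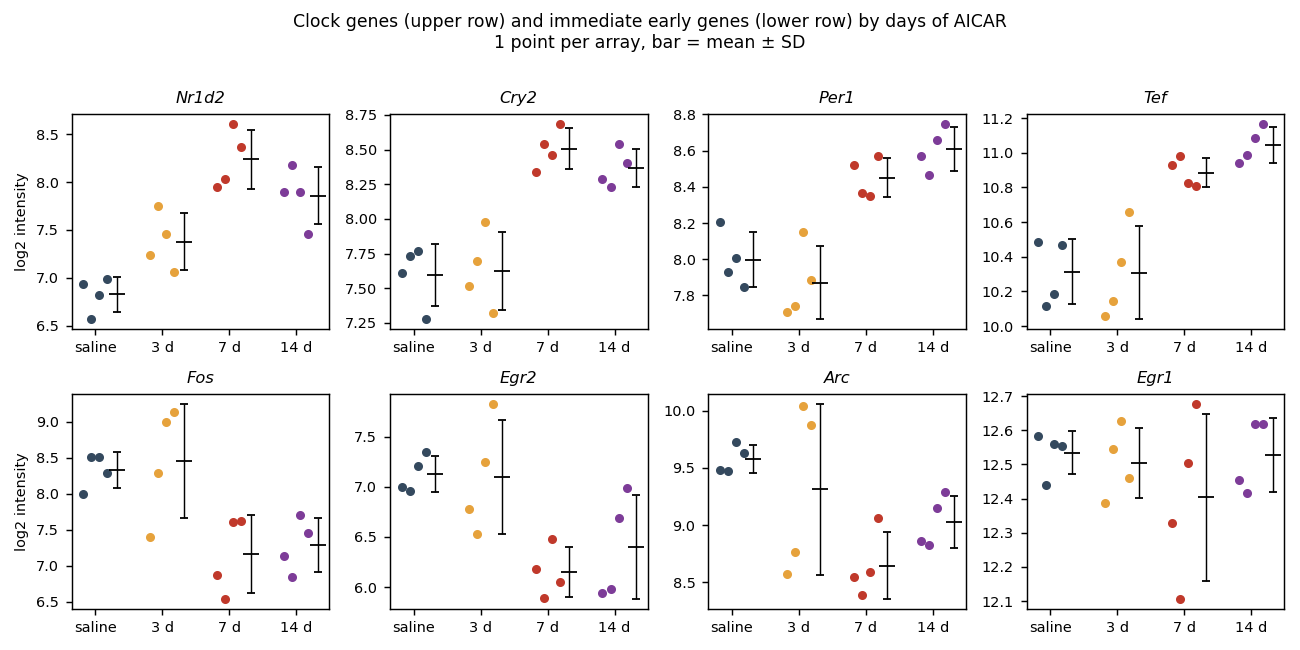
Log2 intensity of 4 clock genes (upper row) and 4 immediate early genes (lower row) in the 16 hippocampal arrays, after saline and after 3, 7 and 14 days of AICAR. Points are arrays and bars are means with SD. Nr1d2, Cry2, Per1 and Tef lie higher at 7 and 14 days than in saline, Fos, Egr2 and Arc lie lower at 7 days, and the 7-day arrays of Egr1 overlap the saline arrays.

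Immediate early genes are transcribed within minutes of neuronal firing, through factors such as CREB and SRF that wait on their promoters. Of 27 tested, 6 were lower (22.2%) and 3 were higher (11.1%), against 15.4% and 12.1% among all genes. Without 7-day replicate 2 the count of lower genes was 3. Fos, a subunit of the AP-1 factor, had 6.87, 6.54, 7.61 and 7.62 after 7 days and 7.998, 8.52, 8.51 and 8.29 after saline. The 7-day arrays lay below the saline arrays and formed a low and a less low pair, with a change of -1.17 ± 0.33 (adjusted p = 0.0173). Egr2, a zinc finger factor of synaptic plasticity and myelination, had 6.18, 5.89, 6.48 and 6.05 after 7 days and 7.00, 6.96, 7.20 and 7.34 after saline. It changed by -0.98 ± 0.26 without overlap (adjusted p = 0.0127). Arc, a capsid-like protein that drives AMPA receptor uptake at synapses, had 8.55, 8.39, 8.59 and 9.07 after 7 days and 9.48, 9.47, 9.72 and 9.63 after saline. Its highest 7-day array was replicate 4, still below every saline array, and the change was -0.93 ± 0.27 (adjusted p = 0.0179).

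Under median scaling Fos changed by -0.87, Egr2 by -0.74 and Arc by -0.64, and all 3 were called. Without 7-day replicate 2, Fos and Arc missed the threshold (adjusted p = 0.0588 and 0.0524). Egr4 (-0.68), Junb (-0.68) and Bdnf (-0.30) were lower without overlap but were not called under median scaling, where they changed by -0.39, -0.37 and -0.02. Egr1, a close relative of Egr2, had 12.33, 12.11, 12.50 and 12.68 after 7 days and 12.58, 12.44, 12.56 and 12.55 after saline, which overlapped (-0.13 ± 0.10, adjusted p = 0.381). Npas4, a factor induced by calcium entry, changed by 0.08 ± 0.34 (adjusted p = 0.891) and was detected on 3 of 4 arrays after 7 days and on 2 of 4 after saline. The 3 genes that rose were Gadd45b (0.75), a DNA demethylation factor, Per1 (0.46) and Homer1 (0.47), a scaffold of metabotropic glutamate receptors. Another probe of Homer1 fell by 0.67 under quantile normalization and by 0.59 under median scaling, both called, and a further one changed by 0.29, which was not called.

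The promoters of Fos and Egr2, which fell together, and of the clock genes Nr1d2, Per1 and Tef are shown as context for these changes. Each line gives the 250 bases before the RefSeq start farthest upstream (GRCm38.p6), 5′ to 3′ on the gene's strand. Capitals mark the half-site TGACG of the cyclic AMP response element, or CGTCA where it lies on the other strand, and the E-box CACGTG, which reads the same on both strands and shares no bases with the half-site here.
Fos, chr12:85473640-85473889, plus strand: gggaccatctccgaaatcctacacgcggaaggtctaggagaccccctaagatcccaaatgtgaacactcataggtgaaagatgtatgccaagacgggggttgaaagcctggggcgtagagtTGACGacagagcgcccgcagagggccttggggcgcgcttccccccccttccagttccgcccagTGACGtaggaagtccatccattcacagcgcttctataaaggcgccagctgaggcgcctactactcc
Egr2, chr10:67535249-67535498, plus strand: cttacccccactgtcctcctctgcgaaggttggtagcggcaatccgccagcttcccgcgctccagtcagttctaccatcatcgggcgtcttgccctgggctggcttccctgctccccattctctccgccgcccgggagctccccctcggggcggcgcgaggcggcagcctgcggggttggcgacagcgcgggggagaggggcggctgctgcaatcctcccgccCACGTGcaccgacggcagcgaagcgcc
Nr1d2, chr14:18239107-18239356, minus strand: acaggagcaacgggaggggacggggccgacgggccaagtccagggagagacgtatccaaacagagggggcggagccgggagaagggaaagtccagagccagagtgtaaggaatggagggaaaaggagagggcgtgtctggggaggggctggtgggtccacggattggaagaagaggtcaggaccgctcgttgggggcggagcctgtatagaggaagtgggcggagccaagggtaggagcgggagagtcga
Per1, chr11:69098699-69098948, plus strand: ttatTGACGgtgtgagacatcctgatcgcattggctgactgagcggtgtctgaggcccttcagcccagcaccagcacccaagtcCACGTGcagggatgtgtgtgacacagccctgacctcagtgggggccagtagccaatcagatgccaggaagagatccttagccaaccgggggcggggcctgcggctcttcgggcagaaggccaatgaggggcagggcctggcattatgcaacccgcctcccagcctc
Tef, chr15:81802423-81802672, plus strand: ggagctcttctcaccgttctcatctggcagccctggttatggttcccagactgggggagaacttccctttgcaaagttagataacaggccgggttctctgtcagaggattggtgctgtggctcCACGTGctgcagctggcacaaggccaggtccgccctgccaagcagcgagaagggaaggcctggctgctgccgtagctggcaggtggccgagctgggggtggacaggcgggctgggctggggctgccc

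The Fos window held 2 half-sites and no E-box, with the nearer half-site at -66 to -62 from the start. The Egr2 window held 1 E-box at -27 to -22. The Per1 window held 1 E-box at -166 to -161 and 1 half-site, and the Tef window held 1 E-box at -127 to -122. Neither set of letters occurs in the Nr1d2 window. Of 32851 promoter windows of this length, 17.8% held the half-site and 6.02% the E-box. These matches describe the sequence and were not tested as binding sites.

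Of 10 tested AMPK subunits and upstream kinases 1 was higher and 1 was lower (10% each), against 12.1% and 15.4% of all genes. The list's median change was 0.13, against -0.05 for all genes. Under median scaling 4 of the 10 were higher and 0 lower, against 22.3% and 1.96% of all genes. Prkaa1, which encodes the α1 subunit, has no probe on the array. Prkaa2, the α2 subunit, had 7.41, 7.32, 6.99 and 7.28 after 7 days and 7.69, 7.72, 7.80 and 7.77 after saline. Its arrays did not overlap, and the change was -0.50 ± 0.10 (adjusted p = 0.00264), but it was -0.21 under median scaling and not called, and its other probe changed by -0.13, which was not called. Prkab2, the β2 subunit, had 5.98, 5.94, 6.12 and 5.72 after 7 days and 5.45, 5.49, 5.48 and 5.60 after saline, where it was detected on 1 of 4 arrays. It rose by 0.43 ± 0.13 (adjusted p = 0.0211), was called under both scalings, and missed the threshold without 7-day replicate 3 (adjusted p = 0.0652). Prkab1 (-0.12), Prkag1 (-0.14), Prkag2 (0.12) and Stk11 (-0.12), which encodes LKB1, were not called. Camkk2, the calcium-dependent upstream kinase, changed by 0.32 ± 0.13 without overlap (adjusted p = 0.0822), and by 0.64 under median scaling, where it was called.

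Among 12 tested genes whose proteins AMPK phosphorylates or acts through, 4 were lower (33.3%) and 0 were higher, against 15.4% and 12.1% among all genes. Ulk1, which starts autophagy, was lower by 0.34 on the log2 scale, Mff, a receptor for mitochondrial fission, by 0.33, Crtc1, a CREB coactivator, by 0.30 and Tsc2, a brake on mTOR, by 0.22. Under median scaling they changed by -0.05, -0.08, 0.01 and -0.05, and 0 of the 12 were called. Another probe of Mff was called higher, by 0.31, and another of Ulk1 changed by -0.08, which was not called. Tsc2 was called in 3 of the 8 fits that left out an array. The list's median was -0.22 under quantile normalization and -0.001 under median scaling, against -0.05 and 0.17 for all genes. Of 17 enzymes and transporters that handle AICAR and other purines, 2 rose (11.8%) and 1 was lower (5.88%), neither share above that of all genes. Atic, the enzyme that uses AICAR monophosphate to make inosine monophosphate, had 8.08, 8.01, 7.98 and 8.09 after 7 days and 7.41, 7.31, 7.30 and 7.57 after saline. Its groups were clearly apart, with a rise of 0.64 ± 0.12 (adjusted p = 0.001), and its other probes changed by 0.82, called, and 0.31, not called. Impdh1, which starts guanine nucleotide synthesis, rose by 0.69 ± 0.11 (adjusted p = 0.000542). Gart, of the same pathway as Atic, changed by -0.26, a call kept in 2 of the 8 fits that left out an array, and by 0.07 under median scaling, not called. Adk, the kinase that phosphorylates AICAR in the cell, averaged 11.08 ± 0.13 after 7 days and 11.09 ± 0.04 after saline (SD, n = 4 each; adjusted p = 0.955).

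Lists of mitochondrial energy metabolism are set against 12.1% higher and 15.4% lower among all genes, and differences between lists were not tested. Of 20 fatty acid oxidation genes 2 were higher (10%) and 1 was lower (5%), with a median change of -0.07. In the tricarboxylic acid cycle and pyruvate dehydrogenase list 10 of 31 tested genes were higher (32.3%) and 1 was lower (3.23%), with a median change of 0.16. Mdh2, the mitochondrial malate dehydrogenase, had 10.10, 10.28, 10.39 and 10.40 after 7 days and 8.92, 9.59, 9.41 and 9.23 after saline, and rose by 1.01 ± 0.14 (adjusted p = 0.000175). Its cytosolic counterpart Mdh1 rose by 0.94 ± 0.14 and the aspartate aminotransferase Got1, which works with both in the malate-aspartate shuttle, by 0.82 ± 0.15. Cs, the citrate synthase, had 10.64, 10.72, 10.65 and 10.63 after 7 days and 10.02, 10.08, 10.13 and 10.18 after saline. Arrays of the same group lay close together in Cs, and the rise was 0.56 ± 0.08 (adjusted p = 0.000168). Pdhb, a subunit of pyruvate dehydrogenase, rose by 0.61, and so did its inhibitors Pdk3 (0.55) and Pdk1 (0.45, with overlapping arrays). The 1 lower gene was Idh2 (-0.36), whose arrays overlapped and which changed by -0.07 under median scaling, not called.

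Respiratory complex I, which passes electrons of NADH to ubiquinone, had 10 of 35 tested genes higher (28.6%) and 1 lower. Ndufb10, an accessory subunit, had 8.07, 8.09, 8.24 and 7.96 after 7 days and 7.11, 6.81, 6.51 and 7.24 after saline. The groups did not overlap and the rise was 1.17 ± 0.15 (adjusted p = 7.49e-05). The assembly factor Ndufaf3 rose by 0.97, and the accessory subunits Ndufb3 and Ndufb9 by 0.73 and 0.69. Ndufb11 was detected on 0 of 4 saline arrays and was at least 1.17-fold higher (adjusted p = 0.000441), with means of 5.79 after 7 days and 5.10 after saline. The list's median was 0.03, and 24 of the 35 genes were not called. With the series values deposited by the authors 10 were higher and 5 lower, with a median of -0.05, against -0.01 for all genes. Of 40 genes of complexes II to V, 9 were higher (22.5%) and 4 were lower (10%), and the lower count was 2 without 7-day replicate 1. With the authors' deposited series values 8 were higher and 8 lower, with a median of 0.002. Uqcrb of complex III rose by 0.90 ± 0.11 (adjusted p = 4.99e-05) and Sdhc of complex II by 0.54 ± 0.11. The lower genes were Atp5b, Cyc1, Cox10 and Cox6a1, with changes between -0.26 and -0.20, and none of these 4 was called under median scaling.

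Of 13 regulators of mitochondrial number, Tfam, which packages and transcribes mitochondrial DNA, rose by 0.52 ± 0.09 on its brightest probe and by 0.95 on the other, and Sirt3, the mitochondrial deacetylase, rose by 0.54 ± 0.10. Ppargc1a, the coactivator PGC-1α, had 8.43, 8.39, 8.44 and 8.59 after 7 days and 8.48, 8.69, 8.63 and 8.78 after saline, which overlapped (-0.18 ± 0.10, adjusted p = 0.174). Nrf1, Ppargc1b and Gabpb1 were lower by 0.31, 0.33 and 0.50 on the log2 scale and were not called under median scaling. In glycolysis 3 of 19 genes were higher (15.8%) and 5 lower (26.3%). Without 7-day replicate 3 there were 5 higher and 4 lower, and without 7-day replicate 4 or saline replicate 4 there were 2 of each. Aldoa, the aldolase, had 12.81, 12.77, 12.54 and 12.75 after 7 days and 11.66, 11.48, 11.84 and 11.77 after saline, a rise of 1.03 ± 0.10 (adjusted p = 1.57e-05). Hk1 rose by 0.37, while Hk2 was lower by 0.45 and Pfkp by 0.34, and both of those calls were lost under median scaling.

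Defence against peroxide and superoxide had 8 of 31 tested genes higher (25.8%) and 0 lower, with a median change of 0.16. Cat, catalase, had 7.10, 7.52, 7.34 and 7.17 after 7 days and 6.61, 6.43, 5.98 and 6.39 after saline, and rose by 0.93 ± 0.16 (adjusted p = 0.000862). Prdx1, a peroxide-reducing peroxiredoxin, had 12.45, 12.46, 12.45 and 12.43 after 7 days and 11.61, 11.54, 11.91 and 11.79 after saline. The 7-day arrays nearly coincided, above all saline arrays, and the rise was 0.74 ± 0.09 (adjusted p = 4.99e-05). The superoxide dismutases Sod2 and Sod1 rose by 0.51 and 0.43, the lipid peroxidase Gpx4 by 0.52, and the glutathione transferases Gstm5 and Gstm1 by 0.52 and 0.42. Hmox1, haem oxygenase, rose by 0.47 with overlapping arrays.

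Cytosolic ribosomal proteins had 20 of 55 tested genes higher (36.4%) and 3 lower (5.45%). Rps21 of the small subunit had 13.38, 13.51, 13.39 and 13.51 after 7 days and 12.40, 12.54, 12.53 and 12.68 after saline. All 7-day arrays lay above the saline arrays, and the rise was 0.91 ± 0.08 (adjusted p = 8.75e-06). Rpl36a and Rpl5 of the large subunit rose by 0.97 ± 0.08 and 0.87 ± 0.10, and Rps3a1 by 0.75 ± 0.13. The list's median was 0.09, with 32 genes not called, and the 3 lower genes (Rpl30, Fau and Rpl22) changed by between -0.33 and -0.20 and were not called under median scaling. Leaving out single arrays gave 20 or 21 higher genes, and 17 without both arrays of low Ttr, while the lower count was 1 without 7-day replicate 2 or without saline replicate 1, 3 or 4. With the series values deposited by the authors 14 were higher and 9 lower, and the list's median was -0.02, against -0.01 for all genes. These families have many near-identical pseudogenes, so a probe may read more than 1 of them. Of 34 initiation and elongation factors 6 were higher (17.6%) and 4 lower (11.8%), and without saline replicate 2 there were 4 higher and 1 lower, with Eif1b (0.80), Eif3k (0.58) and Eif3c (0.51) leading the rises.

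Of 37 tested proteasome genes 9 were higher (24.3%) and 4 lower (10.8%), led by Psmd11. Psmb5, the chymotrypsin-like catalytic subunit, rose by 0.88 ± 0.15 and Psmd8, of the regulatory particle, by 0.84 ± 0.10. Among 37 heat shock proteins and co-chaperones 8 were higher (21.6%) and 4 lower. Hspb1, a small heat shock protein of astrocytes and vessels, had 7.13, 6.87, 6.73 and 7.03 after 7 days and 5.99, 6.04, 6.29 and 5.28 after saline, and rose by 1.04 ± 0.25 (adjusted p = 0.00627). Cryab, its relative in oligodendrocytes, rose by 0.82 ± 0.16. Ahsa1, which stimulates the ATPase of HSP90, rose by 0.87 ± 0.10 and Trap1, the HSP90 of mitochondria, by 0.82 ± 0.08. The 4 lower genes (Dnajb6, Dnajb4, Dnajc6 and Hspa9) changed by between -0.39 and -0.16 and were not called under median scaling, and without saline replicate 2 or replicate 4 the count of lower genes was 1. Of 22 chaperones and stress factors of the endoplasmic reticulum 2 were higher (9.09%) and 1 was lower (4.55%). Of 29 autophagosome genes 4 were higher and 4 lower (13.8% each), and the lower count was 2 when any of 7-day replicates 2 and 4 or saline replicates 1, 2 and 4 was left out. Map1lc3b and Map1lc3a, which coat the autophagosome, rose by 0.98 ± 0.14 and 0.64, while Atg2a, Ulk1, Wipi2 and Ulk2 were lower by 0.43, 0.34, 0.29 and 0.27 on the log2 scale, with no call under median scaling.

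**Figure D4:**
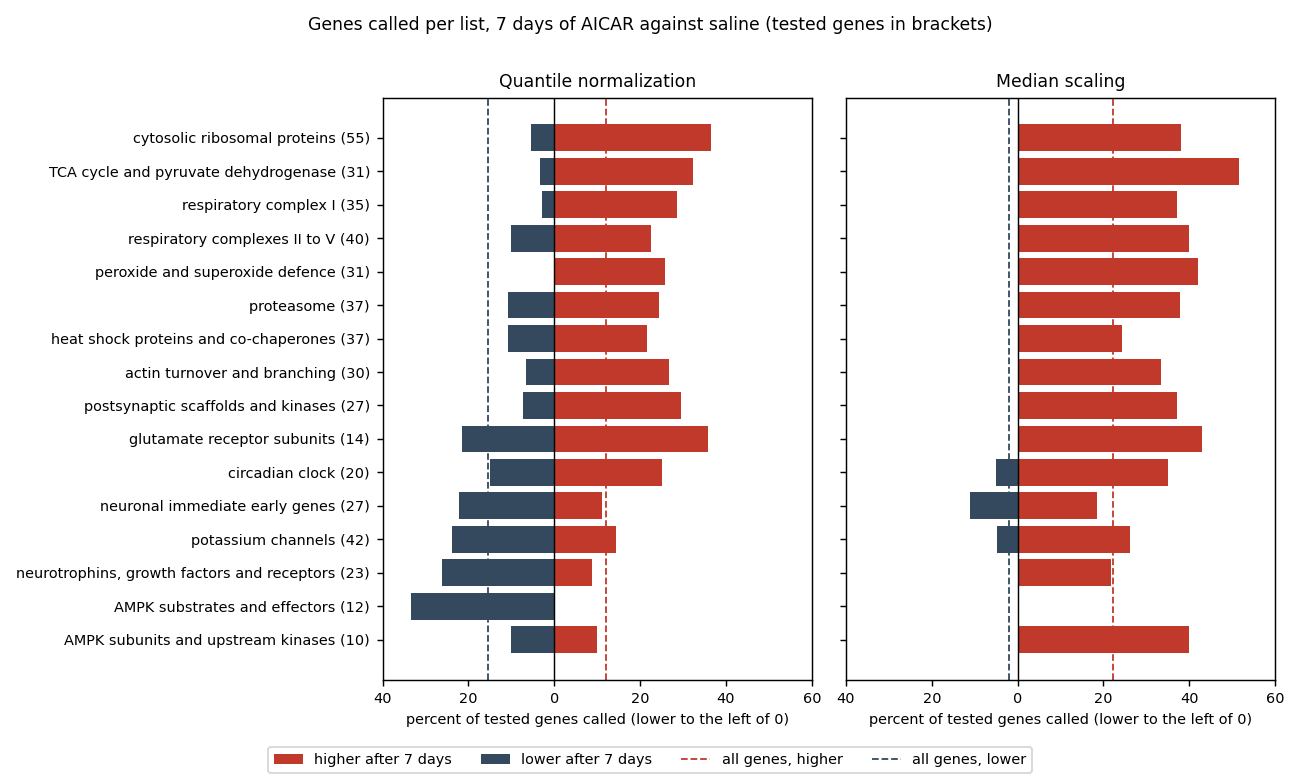
Percent of each list's tested genes called higher (red, right of 0) and lower (blue-grey, left of 0) after 7 days of AICAR against saline, under quantile normalization (left) and median scaling (right). Dashed lines give the shares over all 9534 genes, 12.1% and 15.4% on the left and 22.3% and 1.96% on the right. Immediate early genes, potassium channels and clock genes are the lists shown with genes called lower under median scaling.

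The lists of the synapse are set against 12.1% higher and 15.4% lower among all genes, and differences between lists were not tested. Synaptic vesicle and presynaptic proteins had 4 of 32 genes higher (12.5%) and 3 lower (9.38%), with 2 higher without 7-day replicate 2 or 3 or saline replicate 2, and 1 lower without 7-day replicate 1. Receptors for GABA and glycine with GABA synthesis and transport had 0 of 14 higher and 1 lower (7.14%), with a median change of 0.02. Under median scaling 4 of these 14 were higher and 0 lower, against 22.3% and 1.96% of all genes. Scaffolds and kinases of the postsynaptic density had 8 of 27 tested genes higher (29.6%) and 2 lower (7.41%), with a median change of 0.02. Dlgap1, which links PSD-95 to Shank, had 7.34, 7.50, 7.74 and 7.50 after 7 days and 6.17, 6.69, 6.24 and 6.83 after saline, and rose by 1.03 ± 0.13 (adjusted p = 9.28e-05). Dlgap4 rose by 0.62 and Camk2b, a subunit of the kinase of long-term potentiation, by 0.33. Nrgn, a calmodulin-binding protein of dendrites, was lower by 0.36 on the log2 scale (-0.18 under median scaling, not called). Of 14 glutamate receptor subunits and their partners 5 were higher (35.7%) and 3 lower (21.4%), and without both arrays of low Ttr 3 were higher, while without 7-day replicate 4 the lower count was 5. With the authors' deposited series values 3 were higher and 3 lower. Gria2, the AMPA receptor subunit that blocks calcium entry, had 12.77, 12.81, 12.82 and 12.82 after 7 days and 12.51, 12.45, 12.36 and 12.55 after saline, a rise of 0.34 ± 0.07. Gria3, another AMPA receptor subunit, had 8.16, 8.25, 7.998 and 8.23 after 7 days and 8.80, 8.71, 8.54 and 8.74 after saline, and its change was -0.54 ± 0.10, or -0.23 under median scaling, not called. The other probes of Gria2 (-0.17) and Gria3 (0.08 and -0.03) were not called. Cnih2, an auxiliary subunit that slows AMPA receptor closing, rose by 0.68 and Cacng2, stargazin, by 0.53.

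Potassium channels set the resting potential and the firing rate of neurons. Of 42 tested genes 6 were higher (14.3%) and 10 lower (23.8%), against 12.1% and 15.4% among all genes. Under both scalings 5 were higher and 2 lower. The higher count was 3 without 7-day replicate 3, without 7-day replicate 4, or without both arrays of low Ttr. Kcnk2, the leak channel TREK-1, had 8.43, 8.55, 8.79 and 8.81 after 7 days and 7.87, 7.32, 7.68 and 7.88 after saline. It rose by 0.96 ± 0.13 without overlap (adjusted p = 0.000129). Kcnq1, of a slow voltage-gated channel, had 5.49, 5.80, 5.68 and 5.45 after 7 days and 6.40, 6.24, 6.35 and 6.50 after saline. It fell by 0.77 (SE 0.11) and by 0.64 under median scaling. Kcnj6, the inward rectifier GIRK2, fell by 0.53 and by 0.33 there. The other 8 lower channels were not called under median scaling.

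Of 23 tested neurotrophins, growth factors and receptors 2 were higher (8.7%) and 6 lower (26.1%), with a median change of -0.18. Under median scaling 5 were higher and 0 lower. Ntrk3 (-0.486) and Fgfr2 (-0.355) were called lower under quantile normalization. Bdnf, a neurotrophin much studied in exercise, had 9.35, 9.42, 9.34 and 9.42 after 7 days and 9.76, 9.72, 9.62 and 9.64 after saline. The groups did not overlap, but the change was -0.30 ± 0.08 under quantile normalization (adjusted p = 0.0106) and -0.02 under median scaling, and its second probe changed by -0.06, which was not called. Its receptor gene Ntrk2 changed by 0.16 on the brightest probe, not called, and by 0.57 on another, which was called. Vegfa rose by 0.40 ± 0.12 (adjusted p = 0.0254) with overlapping arrays, its second probe changed by -0.13, which was not called, and the call was kept in 4 of the 8 fits that left out an array. Pdgfa, a growth factor for oligodendrocyte precursors, had 10.64, 10.81, 11.07 and 10.98 after 7 days and 9.84, 9.96, 9.91 and 10.24 after saline, and rose by 0.89 ± 0.13 (adjusted p = 0.000217). In the adult neurogenesis list 3 of 23 genes were higher (13%) and 4 lower (17.4%), close to the 12.1% and 15.4% of all genes. The lower count was 2 when 7-day replicate 2 or 3 or saline replicate 2 or 3 was left out. Neurod2 rose by 0.72 ± 0.09, Dcx, the marker of newborn neurons, changed by 0.25 ± 0.20 (adjusted p = 0.394) on its brightest probe and by 0.64 on another, and Sox2 and Ccnd2 were lower by 0.45 and 0.42 on the log2 scale with no call under median scaling.

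Among glial genes, Gfap, the filament of reactive astrocytes, had 9.93, 9.76, 9.22 and 9.36 after 7 days and 8.98, 8.95, 9.06 and 9.02 after saline. All 7-day arrays lay above the saline arrays but spread more, and the rise of 0.57 ± 0.16 (adjusted p = 0.0164) missed the threshold without 7-day replicate 1 or replicate 2 (adjusted p of at most 0.0559). Over the astrocyte list 4 of 17 genes were higher (23.5%) and 2 lower (11.8%), against 12.1% and 15.4% of all genes. Without 7-day replicate 1 there were 2 higher. The glutamate transporter Slc1a3 was lower by 0.25 on the log2 scale (-0.13 under median scaling, not called). The summed level of the list was 55462 to 58049 in the 7-day arrays and 52885 to 55174 in the saline arrays. Tyrobp, the signalling adaptor of microglia, had 7.80, 7.18, 7.16 and 7.23 after 7 days and 6.56, 6.41, 5.95 and 6.17 after saline, and rose by 1.07 ± 0.18 (adjusted p = 0.000682). Of 20 microglial markers 4 were higher (20%) and 2 lower (10%), with 2 higher without 7-day replicate 1, saline replicate 2 or saline replicate 3. Their summed level overlapped between groups, at 9857 to 11094 after 7 days and 10361 to 10927 after saline. P2ry12, the purine receptor of surveying microglia, was lower by 0.40 on the log2 scale (-0.19 under median scaling, not called). Of 18 oligodendrocyte genes 2 were higher (11.1%) and 0 lower, a share of rises close to the 12.1% of all genes. The 2 were Qdpr (0.86 ± 0.09) and Opalin (0.65 ± 0.13). The brightest probe of Mbp changed by 0.03 ± 0.10 and its other probes by 0.50 and -0.25.

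Probes of a single gene were compared in direction. Of all called probes 48.3% were higher, so called probes of unrelated direction would often be opposite too. Of 2432 genes with 2 or more tested probes, 291 had 2 or more called. In 84 of them all called probes were higher, in 83 all were lower, and in 124 (42.6%) they were called in opposite directions. Under median scaling 308 genes had 2 or more called probes, of which 289 were all higher, 2 all lower and 17 opposite (5.52%). As 93.2% of all called probes were higher under median scaling, most probes share a direction there in any case. The lower share of opposite calls is therefore no sign of better agreement. Of the 84 genes, 81 were again called higher on 2 or more probes there, and of the 83 genes 2 were again called lower, Mrgpra2b and Zfp398.

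Rises called on 2 probes, in part with further probes that were not called, included Cers2, a ceramide synthase of myelin lipids (0.92 and 0.92, with another probe at 0.23, not called), Aptx, a DNA strand-break repair protein (0.87 and 1.12, with another probe at -0.32, not called), Cd151, a tetraspanin (0.98 and 0.87, with the brightest probe at -0.15, not called), and Arpc1b of the actin-branching complex (0.76 and 0.89, with the brightest at -0.08, not called). Ndrg1, of Schwann cells and oligodendrocytes, rose on both probes, by 0.74 and 1.22. Mrgpra2b, a receptor of the Mas-related family, fell on both probes, by 0.90 and 0.65, and Zfp398, a zinc finger protein, on 2 of 3. Of these, 1 probe of Zfp398 changed by -0.60, the other was undetected on all 7-day arrays and at least 1.92-fold lower than in saline (adjusted p = 7.27e-05, means 5.26 after 7 days and 6.37 after saline), and the brightest changed by -0.28, not called. The falls of Sox5 (-0.56 and -0.72) and Tbc1d5 (-0.45 and -0.61) were each called under median scaling on the second probe and not on the brightest.

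Opposite calls were large in some genes. Pacsin3, an endocytosis adaptor, fell by 0.87 on its brightest probe. Another of its probes was detected on 0 of 4 saline arrays and was at least 1.53-fold higher (adjusted p = 3.06e-05), with means of 6.18 after 7 days and 5.06 after saline. Both calls were kept under median scaling. H13, the signal peptide peptidase, had probes at 1.15 and -0.58, of which the fall was not called under median scaling, and the brightest at -0.02, not called. Nup133 of the nuclear pore had 0.67 and -0.59, with the brightest at -0.05, not called, and Mbip, of a histone acetyltransferase complex, 0.62 and -0.59, with both directions called under median scaling in each. In Ppp2r5d, a regulatory subunit of phosphatase PP2A, 1 probe rose by 1.12 and the falls of 2 others, -0.55 and -0.67, were not called under median scaling. Which transcripts these probes read was not analysed here.

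**Figure D5:**
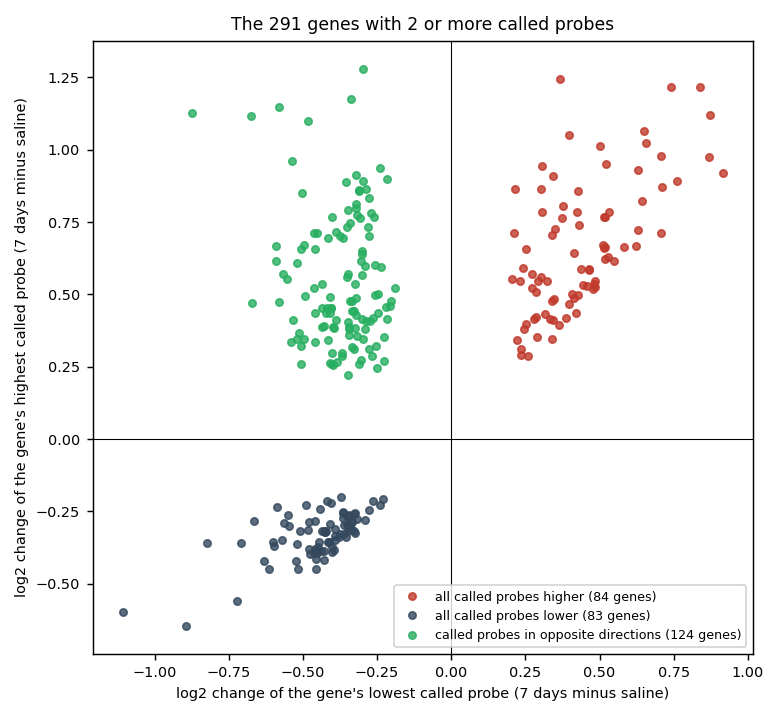
The 291 genes with 2 or more called probes, by the log2 change of the lowest called probe (horizontal) and of the highest called probe (vertical), 7 days minus saline. Each point is a gene, red where all called probes were higher (84), blue-grey where all were lower (83) and green where they were opposite (124).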

How the data were processed

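RNA was measured on single-colour Illumina MouseRef-8 arrays. BeadStudio 1.6.0 is named in the submitters' processing notes. The deposited intensity of each probe was not normalized by the authors, per the file headers, its lowest values show no background subtraction, and each deposited detection p-value compares a probe with that array's negative controls. The series value deposited by the authors is a score: checked on the files, it is the per-array z-score of the log2 intensity. Of 25697 probes 23978 carried 1 gene symbol from the platform table and 1719 carried none.

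Intensities of the 16 hippocampal arrays were corrected with limma 3.58.1 in R 4.3.3 (neqc: normexp from the detection p-values, offset 16), quantile-normalized and put on the log2 scale. Probes had to have a detection p under 0.05 in 4 or more of the 16 arrays, which left 13659, and each was fitted by limma with a mean for every group and moderated variances. The p-values are two-sided and were adjusted by Benjamini and Hochberg over these probes. The number of arrays limits the precision. Replicate arrays were correlated at 0.9916 to 0.9965 and none was a copy. On simulated data for this comparison (13659 probes) 67% of 1.5-fold and 97% of 2-fold changes were recovered, with 9 calls among unchanged probes. The simulation changed only a small part of the probes and drew independent noise for each array. In the data 27.1% of probes were called and the arrays differed by group. The simulated rates hold for that setting and do not give the error rates of this comparison.

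Named are the 12 largest called rises and falls without overlap, genes with 2 or more called probes (10 in each direction, 6 opposite), up to 4 members with the smallest p of each list with 3 or more calls, and a panel of 26 genes, in part. Other list members named were chosen after their values were seen. The members and lists were chosen with earlier results of these data known. Promoters are from RefSeq, where Arc had none. The alternatives were other background, scaling, filter, variance, weight and block settings and leaving out arrays. The 2 arrays of low Ttr were left out together after seeing the data.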

Additional observations from a re-analysis of the deposited data

Results flagged for a closer look

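In 90 tests of 4 arrays of a group, the gap of the highest or lowest array to its nearest neighbour was set against the range of the group by Dixon's test at the 95% level. Chance marks about 1 group in 20. The level of Ttr in 7-day replicate 4 was 11.89, against 14.93 to 15.1 in the other 7-day arrays (ratio 0.947), and in saline replicate 1 it was 11.21, against 14.46 to 14.82 in the other saline arrays (ratio 0.9). The background signal of 7-day replicate 2 was 152.1, against 160.6 to 161.2 in the other 7-day arrays (ratio 0.934). Camkk2 in saline replicate 2 was 8.16, against 8.46 to 8.5 in the other saline arrays (ratio 0.857).

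The change from saline differed between 7 and 3 days of AICAR in 3572 probes, tested as the difference between 7 and 3 days in limma (adjusted p below 0.05). It differed in 22 of the 24 genes of largest change. Those 24 were chosen on the same 7-day arrays, which favoured a difference in advance, so the 22 are no independent result.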

How the results depend on the processing

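Of 3696 called probes 48.3% were higher after 7 days. Under median scaling 3527 were called, 3286 higher and 241 lower (93.2% higher), and 1 probe differed between 14 and 7 days. With the series values deposited by the authors 59.2% of 3624 were higher. With array weights 4481 were called, and 1 differed between 14 and 7 days. Without both arrays of low Ttr 2585 were called, of which 1216 were lower, against 1909 with them. Leaving out single arrays gave 2991 to 3253 called, 1467 to 1674 higher, 1494 to 1624 lower, 48.7 to 51.5% higher, and 2709 to 3560 that differed between 7 and 3 days. The other settings gave 3340 to 3977 called. Same-numbered arrays did not deviate together (correlations -0.194, -0.008, 0.076 and -0.151), and with the replicate number as a block 3391 were called, 1661 higher and 1730 lower.

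Of 177 called genes the settings followed, median scaling kept the call of 119, lost it for 53 (52 of them lower) and turned 5 to small rises that were not called: Crtc1 (0.005), Gart (0.065), Mapk11 (0.005), Mapk14 (0.019) and P2ry13 (0.037). The block kept 173. Of 46 list medians 19 changed sign under median scaling. The cause of these shifts was not tested. With 4 arrays a group, changes of 1.5-fold were recovered only in part in the simulation.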

Other observations

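Among genes of actin turnover 8 of 30 were higher (26.7%) and 2 lower (6.67%), against 12.1% and 15.4% of all genes. Beside Cnn3, these were led by Evl, which speeds filament growth (0.79 ± 0.17, adjusted p = 0.00309), and Actr3 of the Arp2/3 complex (0.64 ± 0.09, adjusted p = 0.000172), and the lower genes, Actb (-0.30) and Wasf3 (-0.41), were not called under median scaling. Splicing factors had 7 of 57 higher (12.3%) and 8 lower (14%), close to the 12.1% and 15.4% of all genes, and 5 lower without 7-day replicate 4 or saline replicate 2. Rbfox2, a regulator of neuronal exons, had 7.49, 7.60, 7.39 and 7.89 after 7 days and 8.52, 8.31, 8.38 and 8.45 after saline, and it fell by 0.82 (SE 0.11) and by 0.52 under median scaling, with its other probe lower by 0.36. In mTOR and insulin signalling 4 of 23 genes were higher (17.4%) and 5 lower (21.7%), with 2 higher without 7-day replicate 3 and 3 lower without saline replicate 4. Irs2, the adaptor of insulin receptors, had 9.35, 9.48, 9.26 and 9.27 after 7 days and 10.03, 9.97, 9.77 and 10.11 after saline, and it fell by 0.63 (SE 0.09) and by 0.35 under median scaling. Sesn1, a leucine-sensing inhibitor of mTOR, rose by 0.66 ± 0.09. Among dentate granule cell markers C1ql3, a secreted synapse organizer, rose by 1.01 ± 0.22 (adjusted p = 0.00343), whereas Prox1 (-0.37) and Rasl10a (-0.35) were not called under median scaling. These genes were named after their values were seen.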
